A study of Mus musculus with 12 samples.

Results

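In fibroblasts cultured from mouse embryos (MEF) and treated with halofuginone, the share of ribosome footprints that each mRNA held was compared with its share of total RNA. The measure, the footprint to RNA ratio, compares the footprints counted for an mRNA with its RNA, relative to the average mRNA of the same cells. How closely the ratio follows the number of ribosomes on an mRNA was not tested. Of the 12 libraries of the study, 6 enter this comparison: 3 libraries of ribosome-protected fragments (RPF, the footprints) and 3 of total RNA, from cells kept with 100 nM halofuginone for 6 h in medium with dialyzed serum. The 6 libraries of untreated cells (3 footprint and 3 RNA libraries), which spent 6 h in that medium without the compound, serve as the background. Apart from halofuginone, no genotype, strain or agent is named for either group. Of 55536 gene IDs in each table, 21405 were nuclear protein-coding genes, and 5866 genes (5861 nuclear and 5 mitochondrially encoded ones) had enough counts in both assays to be tested.

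Halofuginone is known to occupy the prolyl-tRNA synthetase active site of EPRS, so that uncharged tRNA accumulates as it does when an amino acid runs short. The kinase GCN2 senses uncharged tRNA and phosphorylates the initiation factor eIF2, which lowers start-site initiation on most mRNAs. A group of mRNAs with short upstream reading frames, Atf4 first among them, is known to be translated better in that state, and ATF4 in turn switches on genes of amino acid supply and stress. Ribosome profiling reads ribosome positions as nuclease-resistant fragments, so footprints set against RNA separate what is loaded on ribosomes from what is merely present. Both assays were scaled to their own nuclear protein-coding counts, so a general fall of translation cannot be seen here. A log2 ratio of 0 means that a gene held equal shares of both, with levels given as counts per 1000000 nuclear protein-coding counts of the library (CPM).

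The RNA libraries of the treated cells held 1017651 to 1697554 counts and the footprint libraries 562794 to 1958356. Nuclear protein-coding genes took 79.7 to 81.8% of the RNA counts and 96.1 to 96.7% of the footprint counts. Of 12 fibroblast markers, 9 had RNA counts, with a summed level of 11458 to 11861 CPM in RNA, led by Fn1, Vim, Col1a1 and Col1a2, while Dcn, Lum and Postn had no RNA counts and Col3a1 had 2. Summed RNA levels of the macrophage (0 to 12 CPM), endothelial (7.54 to 20.4 CPM) and neural lists (2.40 to 4.31 CPM) were low, and all 7 muscle markers were at 0. Of 8 epithelial markers Epcam, Cdh1, Krt5, Krt14, Krt8 and Cldn4 were at 0 in RNA, but Krt19 stood at 236 to 246 CPM. The part of other cells in the ratios was not tested, and in such bulk libraries fewer cells of a type and less RNA per cell cannot be told apart.

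Footprint to RNA ratios differed widely between the mRNAs of treated cells. edgeR's quasi-likelihood test with Benjamini-Hochberg adjustment (threshold 0.05) called 1580 of 5866 genes (26.9%) higher in footprints than in RNA and 1886 (32.2%) lower. With a difference of at least 2-fold asked for as well, 587 genes (10.0%) were higher and 982 (16.7%) lower. The middle 90% of genes spanned log2 ratios from -1.83 to 1.28, an 8.63-fold range, with a median of -0.06. The ratio varied over genes with an SD of 0.954 on the log2 scale, against a median standard error of 0.223 for one gene. For 3653 genes the 3 footprint values and the 3 RNA values did not overlap, and 3235 of these were called. The split between higher and lower rests on the scaling. All counts of a library include the locus Gm42418 (7.35 to 9.48% of the treated RNA counts) and RNA polymerase III and other non-coding transcripts. Scaled to all counts, the median ratio moved up by 0.25 and 2171 genes were higher and 1426 lower. Values are therefore best read against the median of all genes. Counts of calls within a list are likewise best read against the 26.9% higher and 32.2% lower of all genes.

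**Figure D1:**
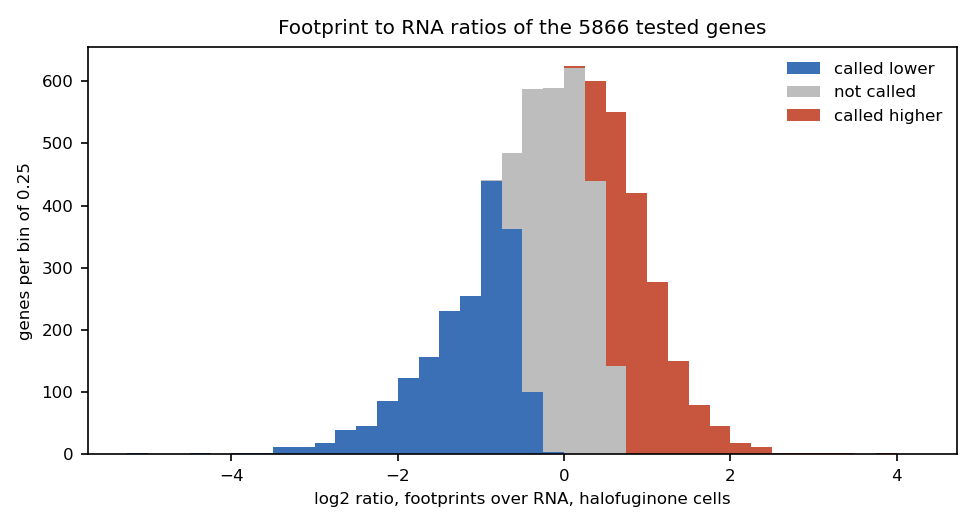
Number of genes (vertical axis) in bins of 0.25 of the log2 ratio of footprints over RNA in halofuginone cells (horizontal axis), coloured by the call of the edgeR test at an adjusted p of 0.05. The lower side reaches further than the higher one: 982 genes were at least 2-fold lower and 587 at least 2-fold higher.

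Untreated cells showed much the same ranking of mRNAs. Over the 5866 genes the log2 ratios with and without halofuginone correlated across genes with Pearson's r of 0.799 and Spearman's rho of 0.798, and 4751 (81.0%) had the same sign. These are descriptions across genes, which are not independent replicates. The 6 libraries of one state share no library with those of the other. The middle 90% of genes covered a 10.1-fold range in control cells. A test of the difference between the states in 7930 genes (an interaction term over the 12 libraries) called 489 (6.17%) with a higher ratio under halofuginone and 662 (8.35%) with a lower one.

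**Figure D2:**
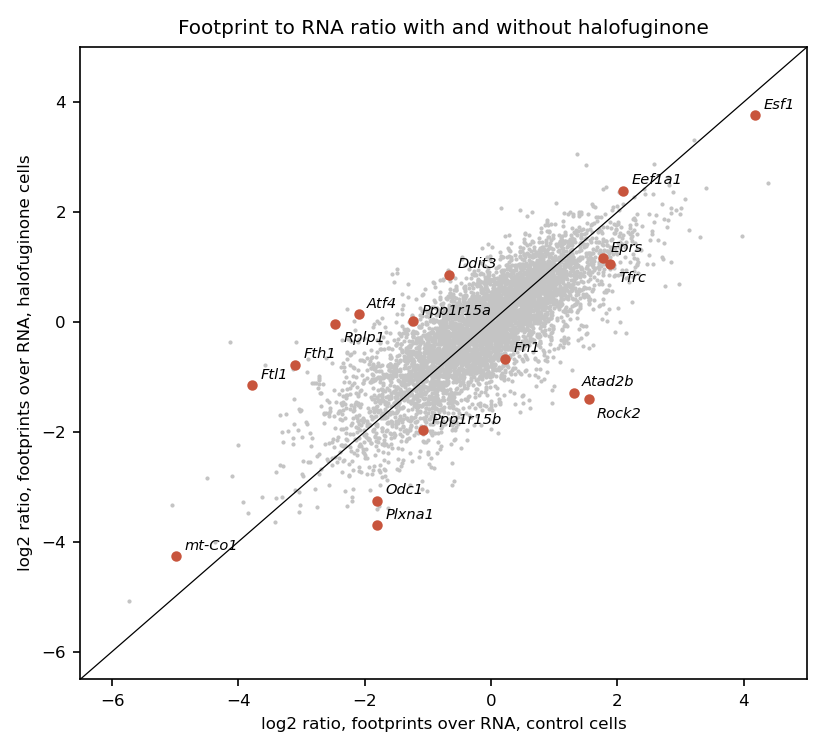
Log2 ratio of footprints over RNA in control cells (horizontal axis) and in halofuginone cells (vertical axis) for each tested gene (grey points), with genes named in the text in red and a line of equal values. Atf4, Fth1, Ftl1 and Rplp1 lie above the line, and Rock2, Atad2b and Plxna1 below it.

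In treated cells the mRNAs known for regulatory upstream reading frames had a median ratio near that of all mRNAs. Single members spread from -1.97 to 1.16. Of 10 measured, Eprs, Ddit3 and Ifrd1 were called higher, Ibtk and Ppp1r15b lower, and 5 were not called. Of all genes, 26.9% were called higher and 32.2% lower. The median log2 ratio of the 10 was 0.03 against -0.06 for all genes. In control cells the median of the 10 was -0.76. The difference test called 4 of them higher under halofuginone (Atf4, Ddit3, Ppp1r15a and Cebpb) and 2 lower (Eprs and Ppp1r15b). Of all genes in that test 6.17% were called higher and 8.35% lower. The list was drawn up with earlier results of these data known, so its count is not independent evidence of a direction.

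Atf4, which encodes the transcription factor at the centre of the amino acid response (chromosome 15, 80255184 to 80257545 in GRCm38.p6), had 1111, 1149 and 1158 CPM in the 3 footprint libraries of treated cells. Its RNA stood at 1055, 974 and 1054 CPM, so the groups did not overlap but lay close together. The log2 ratio was 0.15 (SE 0.09) and was not called (edgeR adjusted p = 0.15). It was called at 0.21 with one scaling over all libraries (adjusted p = 0.038) and at 0.40 when scaled to all counts (adjusted p = 0.00013). In control cells Atf4 had only 182, 186 and 191 CPM in footprints for 785, 861 and 736 CPM in RNA, a log2 ratio of -2.09. Atf4 thus stood at percentile 3.60 of the ratios of all tested genes in control cells and at percentile 59 in treated cells. The difference of 2.26 (SE 0.13) was called (edgeR adjusted p = 2e-19), and every treated footprint library was above every control one.

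Ddit3, which encodes CHOP, a transcription factor of prolonged stress, had 140.0, 129 and 156 CPM in footprints and 74.3, 73.3 and 84.3 CPM in RNA of treated cells. All 3 footprint values exceeded the RNA values, with a log2 ratio of 0.86 (SE 0.19, edgeR adjusted p = 0.00017). In control cells both were near the detection limit, with 5.80, 5.02 and 2.87 CPM in footprints and 10.5, 7.35 and 5.40 CPM in RNA. The difference from control of 1.53 (edgeR adjusted p = 0.043) lost its call in 15 of 20 other settings, for example at an adjusted p of 0.28 without RNA control replicate 1. Ddit3 passed the filter of the difference test only through the treated libraries, where it was higher, so the size of its difference is uncertain. Cebpb, a transcription factor named here after its values were seen, had a log2 ratio of 0.05 against -0.69 in control cells, and its difference of 0.75 (edgeR adjusted p = 0.033) lost its call in 11 of 21 other settings.

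The pair of eIF2 phosphatase subunits went separate ways. Ppp1r15a (GADD34), the inducible subunit, had 197, 204 and 294 CPM in footprints and 228, 213 and 236 CPM in RNA, and its log2 ratio of 0.01 against -1.24 in control cells differed by 1.27 (edgeR adjusted p = 0.0075). That call was lost without RNA control replicate 3 (adjusted p = 0.080) or RPF control replicate 1 (adjusted p = 0.075). Ppp1r15b (CReP), the constitutive subunit, had 186, 161 and 175 CPM in footprints for 647, 725 and 699 CPM in RNA, the lowest ratio of the list at -1.97 (SE 0.12, edgeR adjusted p = 1.2e-18). Its ratio was also lower than in control cells (-1.08), by -0.88 (edgeR adjusted p = 0.00021). In footprints alone Ppp1r15b overlapped between treated and control cells (161, 161 and 199.5 CPM in control), whereas its RNA was higher in all treated libraries (338, 406 and 343 CPM in control).

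Eprs, the bifunctional glutamyl-prolyl-tRNA synthetase that halofuginone binds, had 786, 742 and 643 CPM in footprints and 294, 356 and 325 CPM in RNA of treated cells. Its log2 ratio of 1.16 (edgeR adjusted p = 2.7e-12) was lower than the 1.77 of control cells by -0.59 (edgeR adjusted p = 0.011), a call lost without RNA control replicate 1 (adjusted p = 0.053). Ifrd1, a transcriptional co-regulator, was called higher at 0.65 (edgeR adjusted p = 6e-08), with 1474, 1442 and 1839.6 CPM in footprints and 1103, 972 and 942 CPM in RNA, beside 0.74 in control cells. Ibtk, a substrate adaptor of a ubiquitin ligase, was called lower at -0.94, beside -0.88 in control cells. Atf5, a transcription factor related to ATF4, and Slc35a4, an mRNA known for a long upstream frame, were not called (-0.06 and -0.20), and the signs of both changed with the scaling.

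**Figure D3:**
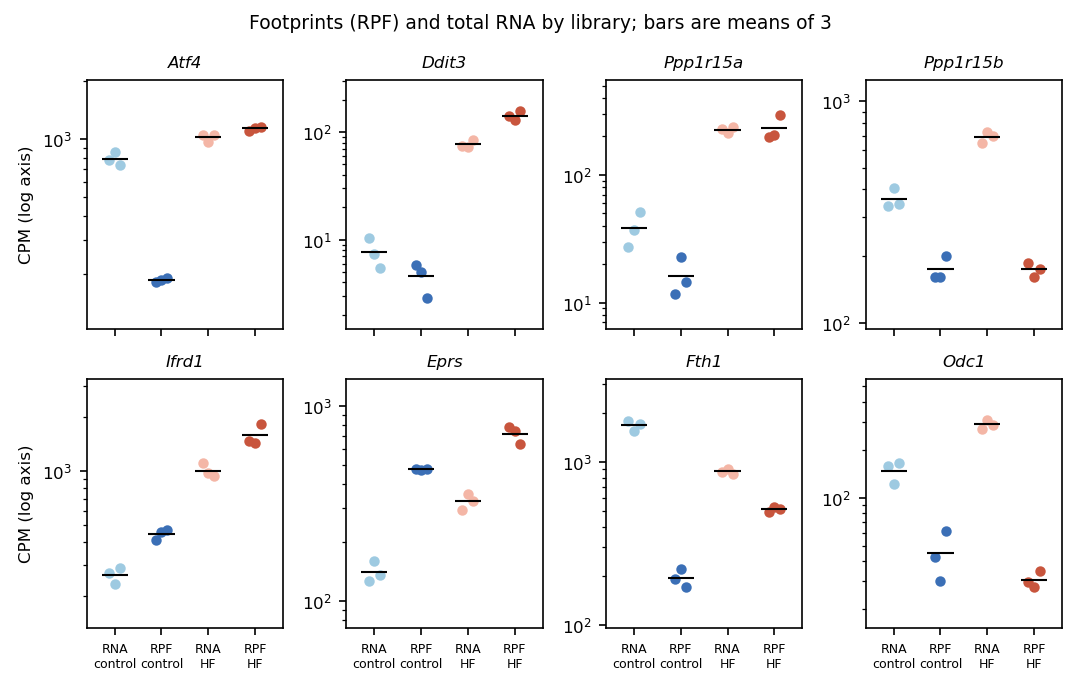
Level in CPM (log axis, own scale for each gene) of 8 genes in each of the 12 libraries, by assay and treatment; points are libraries and bars the means of 3. For Atf4 the control footprints (182 to 191 CPM) lie far below the control RNA, and in treated cells the assays nearly meet, while for Ppp1r15b and Odc1 the treated footprints lie below the treated RNA in every library.

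Other targets of ATF4 and CHOP spread to both sides of 0. Of 18 listed genes 13 were tested, 5 were called higher and 4 lower, close to the 26.9% and 32.2% of all genes, and the median of 0.12 lay near that of control cells (0.10). Nupr1, a chromatin-associated stress protein, had the highest ratio at 1.5, with 178, 220.5 and 239 CPM in footprints and 92.6, 75.7 and 56.9 CPM in RNA. Phgdh, the first enzyme of serine synthesis (0.78), and Asns, asparagine synthetase (0.58, with 869, 855 and 844 CPM in footprints and 592, 586 and 542 CPM in RNA), were also called higher. Sesn2, a stress-inducible inhibitor of mTORC1 signalling (-0.86), and Mthfd2, a mitochondrial folate enzyme (-0.69), were called lower. Trib3, a pseudokinase that binds ATF4, was not called at -0.41 (edgeR adjusted p = 0.074), and was called at -0.60 without RPF HF replicate 3 (adjusted p = 0.011). Of 16 members that entered the difference test, edgeR called 0 (4 at an unadjusted p under 0.05), and DESeq2 and limma-voom called 0.

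At both ends of the ranking stood mRNAs with large gaps between footprints and RNA. Esf1, a nucleolar protein of ribosomal RNA processing (chromosome 2, 140119881 to 140170558), had 359, 323 and 357 CPM in footprints for 24.8, 14.4 and 33.9 CPM in RNA. That is 13.5-fold more (log2 ratio 3.75, SE 0.20, edgeR adjusted p = 1.1e-20), and control cells had a like value of 4.18. S100a11, a small calcium-binding protein, had 223, 156 and 121 CPM in footprints and 21.5, 14.4 and 15.8 CPM in RNA, a log2 ratio of 3.32. Ndufb2, a subunit of respiratory complex I, had 129, 103 and 114 CPM in footprints and 12.9, 14.4 and 14.4 CPM in RNA. Its ratio of 3.05 exceeded the 1.36 of control cells by 1.71 (edgeR adjusted p = 0.00045), with footprints in the same range in both states and RNA at 42.9, 40.4 and 39.2 CPM in control cells.

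Also among the 10 highest were the ribosomal protein Rpl38 (2.87) and the initiation factor subunit Eif3j1 (2.53). For Eif3j1 the ratio was 4.38 in control cells, -1.83 apart (edgeR adjusted p = 0.0081), on control RNA of 7.33, 1.84 and 5.40 CPM. It passed the RNA filter of the difference test only through the treated libraries, where its RNA was higher, so the size of its difference is uncertain. The mitotic genes Kif20b, a kinesin of cytokinesis (2.64), Mki67, the proliferation antigen Ki-67 (2.48), and Cenpe, a kinetochore motor (2.44), stood there too, as did Thoc2, a subunit of the complex that couples transcription to mRNA export (2.45). Mki67 had 307, 299 and 369 CPM in footprints and 44.2, 64.9 and 63.4 CPM in RNA. RNA levels of the genes named here from the upper end were low, at no more than 108 CPM in any treated library.

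The 10 lowest ratios among tested nuclear genes belonged to proteins of varied roles. Plxna1, a receptor for semaphorins (chromosome 6, 89316313 to 89362613), had 39.5, 25.8 and 73.5 CPM in footprints for 563, 547 and 599 CPM in RNA. That is 13-fold fewer (log2 ratio -3.70, SE 0.18, edgeR adjusted p = 2.3e-22). Piezo1, a mechanically gated ion channel, had 104, 130.4 and 154 CPM in footprints and 1286, 1325 and 1284 CPM in RNA, at -3.38. Arhgap35, a GTPase-activating protein (-3.35), and Ptprs, a receptor tyrosine phosphatase (-3.41), were next to them. These 4 genes had ratios between -1.63 and -1.81 in control cells. Their ratios were lower under halofuginone by -1.88 for Plxna1, -1.75 for Piezo1, -1.59 for Ptprs and -1.55 for Arhgap35, all called by the difference test with edgeR adjusted p of 4e-06 or less.

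The other 6 of the 10 lowest were Kif1c, a kinesin motor (-3.63), Mafg, a small Maf transcription factor (-3.47), Ndst1, an enzyme of heparan sulfate sulfation (-3.46), Tcf20 (-3.37), Med13l, a Mediator kinase module subunit (-3.34), and Lsm12 (-3.33). Mafg had 26.2, 29 and 29.4 CPM in footprints and 310.2, 310.0 and 302 CPM in RNA. Kif1c, Mafg, Ndst1 and Tcf20 were not called in the difference test. Lsm12 had a still lower ratio in control cells (-5.05, a difference of 1.74, edgeR adjusted p = 0.00043), and Med13l a higher one (-2.28, a difference of -1.05, edgeR adjusted p = 0.0022). Control footprints of Lsm12 were near the detection limit, at 9.53, 7.53 and 10.0 CPM. Lsm12 passed the footprint filter of the difference test only with the treated libraries, where footprints were higher, so the size of its difference is uncertain.

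**Figure D4:**
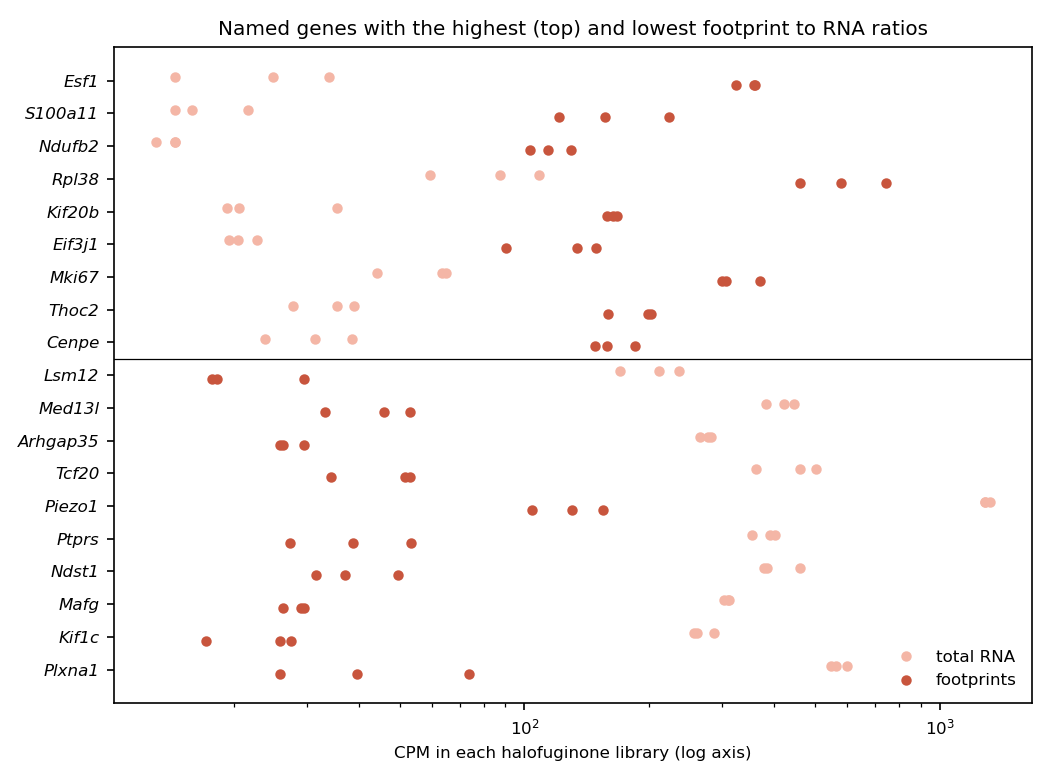
Level in CPM (log axis) of the named genes among the 10 with the highest (top) and the 10 with the lowest footprint to RNA ratio, in each of the 3 RNA (light) and 3 footprint (dark) libraries of halofuginone cells. The 2 assays do not overlap for any gene shown, which the rule for choosing them required.

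Some mRNAs had ample RNA but too few footprints to be tested. Of the nuclear protein-coding genes, 7742 passed the count filter in RNA and 6024 in footprints, and 1881 passed in RNA alone against 163 in footprints alone. The tested genes held 89.9% of the protein-coding RNA counts and 95.3% of the footprint counts. Among the former, named after their values were seen because they had the most RNA counts, Pkd1, which encodes the large membrane protein polycystin-1, had 367, 316 and 556 RNA counts but 43, 11 and 5 footprint counts. Kmt2d, a histone methyltransferase, had 355, 303 and 533 RNA counts and 26, 16 and 25 footprint counts. The lower tail of ratios is therefore cut short by the filter. With only 1 count asked for in every library, 2875 genes were called lower, and with 30 counts 869.

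The machinery of translation itself was on the footprint-rich side, with exceptions. Of 82 listed cytosolic ribosomal proteins 68 were tested, 43 were called higher and 5 lower, and the median was 0.72 (1.64-fold), against 26.9% higher and 32.2% lower of all genes. In control cells the median of the 68 was 0.49. The difference test called 28 higher under halofuginone and 2 lower, beside 6.17% and 8.35% of all genes in that test. The large subunit had a median of 0.67 over 38 proteins and the small subunit 0.82 over 30. Rpl38 had 742, 578 and 461 CPM in footprints for 87.3, 108 and 59.1 CPM in RNA, 7.30-fold more, while Rps26, at 106, 75.6 and 95.6 CPM in footprints and 183, 168 and 176 CPM in RNA, had the lowest ratio (-0.89). Ribosomal protein genes have many near-identical copies in the genome, and how reads with several matches were counted is not given, so single members are uncertain.

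Rplp1, a protein of the ribosomal stalk, moved furthest of the ribosomal proteins between the states. In treated cells it had 112, 193 and 114 CPM in footprints and 167, 114 and 138 CPM in RNA (-0.03, not called). In control cells it had 40.2, 32 and 56 and 253, 215 and 205 CPM (-2.47), and the difference of 2.45 (SE 0.28) was called (edgeR adjusted p = 5.3e-09). The sign of its small ratio in treated cells changed with the scaling.

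Most mRNAs of the translation machinery are known to begin with a terminal oligopyrimidine (TOP) tract, a C at the cap followed by pyrimidines, through which mTORC1 signalling controls them. Start-site windows from RefSeq (GRCm38.p6) are shown for 5 ribosomal protein genes that hold such a tract but spread over the range of ratios, and for Odc1 without one. Each window runs from 10 bases before to 20 bases from the annotated start, with the tract in capitals and the strand of the gene.
Rpl38: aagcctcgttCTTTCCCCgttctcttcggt
Rpl28: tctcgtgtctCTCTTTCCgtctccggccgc
Rps6: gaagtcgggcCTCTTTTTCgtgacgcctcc
Rps27: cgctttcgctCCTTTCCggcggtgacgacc
Rpl35a: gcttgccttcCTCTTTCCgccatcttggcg
Odc1: cctcccccgcgcctcccggccggaaccgat
They lie at chr11:114668570-114668599 (plus strand), chr7:4792955-4792984 (plus), chr4:86857348-86857377 (minus), chr3:90213629-90213658 (minus), chr16:33056472-33056501 (plus) and chr12:17544863-17544892 (plus). The log2 ratios were 2.87 for Rpl38, 1.93 for Rpl28, 0.70 for Rps6, 0.08 for Rps27, -0.32 for Rpl35a and -3.25 for Odc1. The genes were picked to spread over the range, and the ratio of Rpl35a was not called.

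Searched on the gene's strand only, as a C at the annotated start followed by at least 4 pyrimidines, the tract was in 823 of 32851 promoters (2.51%) and in 135 of the 4755 tested genes with a promoter (2.84%). These 135 genes had a median of -0.02 against -0.06 for the 4620 others. Among the ribosomal proteins it was in 12 of 53 (22.6%), of which 10 were called higher and 0 lower, against 25 higher and 4 lower of the 41 without it. The medians of these sets were 0.72 and 0.69 in treated cells and 0.72 and 0.46 in control cells, and the difference between them was not tested. A match is a description of letters at one annotated start, and many genes start at more than one base.

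Of 17 other mRNAs known for such a tract, 12 were called higher and 2 lower, with a median of 0.67. Eef1a1, which brings aminoacyl-tRNA to the ribosome, had 3754, 3887 and 3911 CPM in footprints and 744, 759 and 705 CPM in RNA, 5.23-fold more (log2 ratio 2.39, SE 0.08, edgeR adjusted p = 1.5e-28). Npm1, the nucleolar chaperone nucleophosmin (1.96), and Eef2, the translocation factor (0.59, with 3141, 3192 and 3255 CPM in footprints and 2092, 2157 and 2139.9 CPM in RNA), were higher too. Pabpc1, the cytoplasmic poly(A)-binding protein, had 417, 375 and 342 CPM in footprints and 719.6, 741 and 797 CPM in RNA (-0.98), and Tpt1 (TCTP) was also called lower (-0.89). The handling of reads with several matches is unknown for these genes too, so single members are uncertain.

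Among 34 tested initiation, elongation and termination factors, 16 were called higher and 12 lower, beside 26.9% and 32.2% of all genes (median 0.36, against 0.43 in control cells). All 3 subunits of eIF2, the carrier of the initiator tRNA, were higher: Eif2s2 at 1.48, Eif2s3x at 0.94 and Eif2s1, the subunit that GCN2 phosphorylates, at 0.78. Of 9 tested subunits of eIF3, the scaffold of the initiation complex, 8 were higher (median 0.71), among them Eif3a with 1713, 1323 and 1450.0 CPM in footprints and 408, 496 and 409 CPM in RNA (1.78). Eif5b, the GTPase of subunit joining, had 350.0, 303 and 235 CPM in footprints and 53.9, 52.9 and 69.9 CPM in RNA (2.33). The subgroups and the members named here beyond the 2 at each end of the list were chosen after their values were seen.

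Among the factors called lower, also picked out after their values were seen, were all 3 tested genes of eIF1 and eIF1A, which act in scanning for the start codon. Eif1, which enforces the choice of the start codon, had 82.8, 80.5 and 97.4 CPM in footprints for 239, 267 and 232 CPM in RNA, 2.85-fold fewer (log2 ratio -1.51, SE 0.17, edgeR adjusted p = 1.4e-10). In control cells Eif1 had 162, 168 and 169 CPM in footprints and 147, 149 and 179.7 CPM in RNA (0.07), so its ratio was lower under halofuginone by -1.56 (SE 0.22, edgeR adjusted p = 6e-07). Footprints of Eif1 were lower and RNA higher in every treated library than in every control one. Eif1a had a log2 ratio of -0.92 and Eif1ax of -0.50, and the call of Eif1ax was lost in several other settings, for example at -0.31 without RNA HF replicate 2 (adjusted p = 0.17).

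Of 8 tested members of the eIF4 group, which binds the cap and unwinds the leader, 6 were called lower and 2 higher. Eif4g3 was lowest (-1.53), and the scaffold Eif4g1 had 667, 698 and 878 CPM in footprints and 1174, 1259 and 1121 CPM in RNA (-0.67). Eif4e, the cap-binding protein (-0.59, lost at an adjusted p of 0.16 when scaled to all counts), and Eif4ebp1, its inhibitor (-0.81), were lower, while the helicase Eif4a1 was higher (0.70).

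Cytosolic tRNA synthetases, which charge tRNAs with amino acids, were the most uniform of these groups. Of 20 tested, 18 were called higher, with a median of 0.74 (1.66-fold) that ranged from 0.70 to 0.84 over the 9 pairs of footprint and RNA libraries. Tars, the threonyl enzyme, had 959, 895 and 1003 CPM in footprints and 357, 344 and 359 CPM in RNA (1.43, SE 0.10, edgeR adjusted p = 2.7e-16), and Rars, the arginyl enzyme, reached 1.42. Vars at -0.23 and Wars at -0.08 were the members not called. The median in control cells was 0.71. The difference test called 1 higher and 2 lower, the latter including Eprs, beside 6.17% and 8.35% of all genes in that test.

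**Figure D5:**
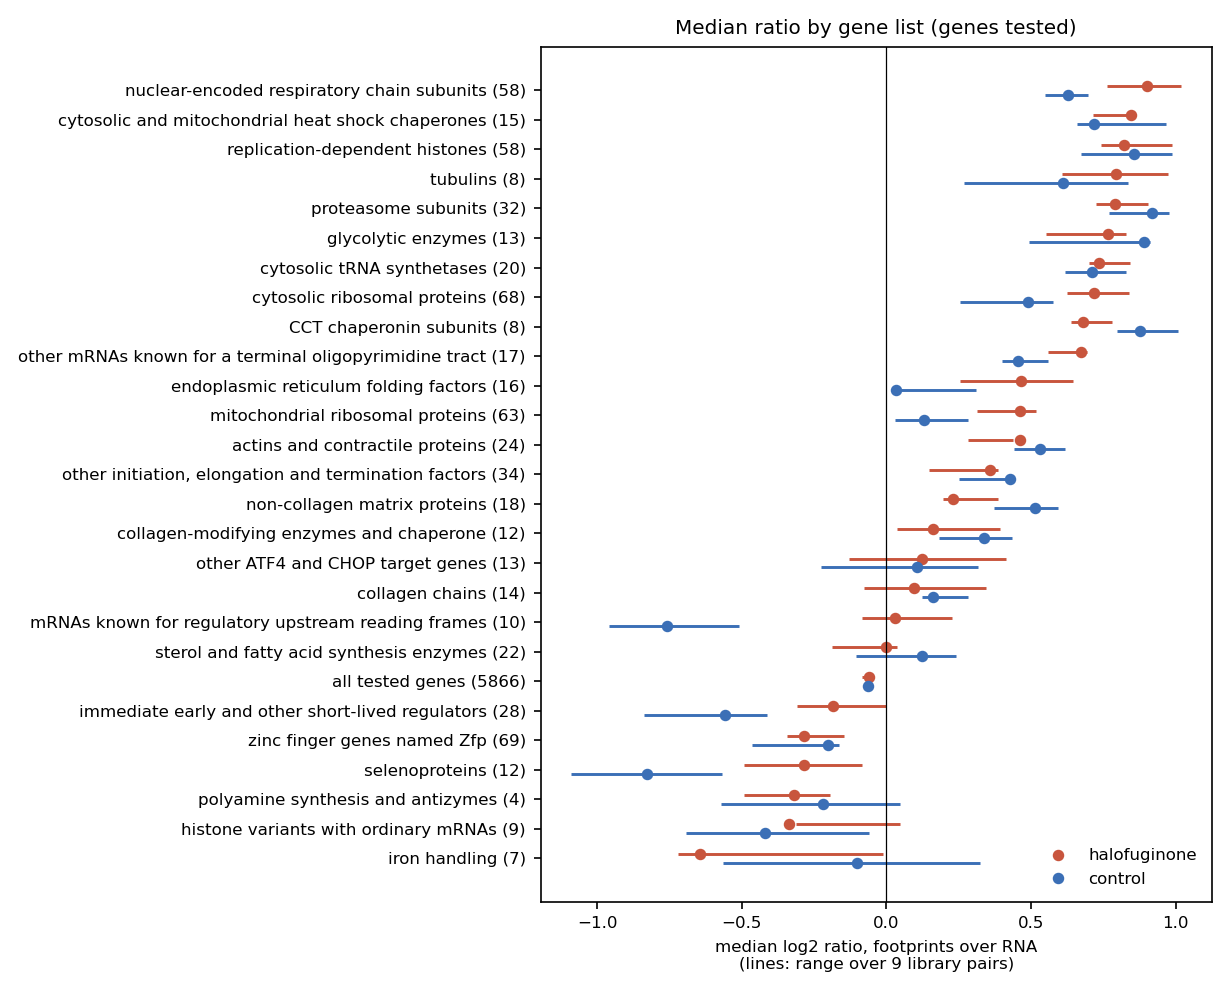
Median log2 ratio of footprints over RNA (horizontal axis) of each gene list with at least 4 tested members except the mitochondrially encoded one, in halofuginone (red) and control (blue) cells; lines are the range of the list's median over the 9 pairs of footprint and RNA libraries, and the number of genes is in brackets. The respiratory chain, chaperone, histone, tubulin and proteasome lists lie furthest right in treated cells, and the upstream reading frame, early-response and selenoprotein lists lie further left in control than in treated cells.

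Mitochondrial genes fell on both ends according to where they are encoded. Of 58 tested nuclear-encoded respiratory chain subunits 47 were called higher and 1 lower, with a median of 0.90 (1.87-fold), against 0.63 in control cells. Complex I had a median of 1.03 over 25 subunits, complex II 0.85 over 4, complex III 0.95 over 9, complex IV 0.84 over 8 and the ATP synthase 0.75 over 12. Cox6b1 of complex IV had 428, 344 and 340.0 CPM in footprints and 94.8, 72.1 and 112 CPM in RNA (1.99), and its ratio exceeded that of control cells by 0.85 (edgeR adjusted p = 0.0044). Atp5g3, a ring subunit of the ATP synthase, was the one called lower (-0.35, edgeR adjusted p = 0.016), a call lost in 4 of 15 other settings.

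Of 63 tested mitochondrial ribosomal proteins 28 were higher and 7 lower (median 0.46, against 0.13 in control cells). Mrpl21 was highest (2.0) and Mrps23 lowest (-1.16).

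All 5 tested genes of the mitochondrial genome were called lower, with a median of -4.0. mt-Nd1, a complex I subunit, had 30.5, 17.7 and 44.1 CPM in footprints for 925, 938 and 1201 CPM in RNA, 33.6-fold fewer (-5.07, SE 0.17). mt-Co1, a complex IV subunit, had 96.2, 108 and 114 CPM in footprints and 1916, 1991 and 2064 CPM in RNA (-4.26). mt-Nd2 (-4.0), mt-Cytb (-3.28) and mt-Nd5 (-3.18) completed the set. The median in control cells was -4.36, and the difference test called 3 of the 5 higher under halofuginone: mt-Co1 by 0.75 (edgeR adjusted p = 0.00026), mt-Cytb by 0.66 (edgeR adjusted p = 0.0085) and mt-Nd1 by 0.68 (edgeR adjusted p = 0.042), the last a call lost in 14 of 20 other settings. These mRNAs are read by mitochondrial ribosomes, whereas the footprints came from a sucrose fraction of digested lysate, and how far that fraction holds mitochondrial ribosomes was not tested.

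Non-coding transcripts, given without a test, ranged from strong depletion in footprints to none. Rn7sk, a small nuclear RNA that restrains transcription elongation, had 6006, 5667 and 6269 CPM in RNA and 19.2, 37.0 and 29.4 CPM in footprints, 209-fold fewer. Rpph1, the RNA of RNase P, was 24.8-fold lower in footprints and the nuclear Malat1 15.8-fold lower. Tug1 (4.76-fold lower), Snhg15 (2.16-fold) and the telomerase RNA Terc (1.98-fold, on 34 footprint counts), named after their values were seen, were depleted far less. The snoRNA host transcripts Snhg1 and Gas5, named after their values were seen, had ratios of means of 0.07 and 0.69 on the log2 scale, within the range of coding mRNAs. Gas5 is known to be loaded with ribosomes on a short reading frame.

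Complexes that fold and destroy proteins held more footprints than RNA. Of 32 tested proteasome subunits 24 were called higher and 1, Psmd11 (-0.84), lower, beside 26.9% higher and 32.2% lower of all genes. Medians were 0.91 for the core and 0.79 for the regulatory particle, against 1.06 and 0.62 in control cells. Psma1 of the core had 169, 192 and 164 CPM in footprints and 49.6, 61.3 and 32.4 CPM in RNA (1.91). Of the 8 subunits of the CCT chaperonin, which folds actin and tubulin, 7 were higher, led by Cct3 (1.38). The CCT median was 0.68, against 0.88 in control cells. In the difference test 3 subunits were called lower and 0 higher, beside 8.35% and 6.17% of all genes in that test. For Cct8 the ratio of 0.91 was -0.55 away from that of control cells (edgeR adjusted p = 0.002). Of 15 heat shock chaperones 10 were higher, with Hsp90aa1 at 809, 718 and 656 CPM in footprints and 127, 157 and 145 CPM in RNA (2.36) and Hspa8, the constitutive HSC70, at 0.89. The heat shock median was 0.84, against 0.72 in control cells.

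Of 16 factors of protein folding in the endoplasmic reticulum 9 were higher and 1 lower, beside 26.9% and 32.2% of all genes. Their median was 0.47, against 0.03 in control cells. Hsp90b1 (GRP94) had 1261, 1109 and 912 CPM in footprints and 292, 309 and 303 CPM in RNA (1.87), and its ratio was 2.74 in control cells, a difference of -0.85 (edgeR adjusted p = 6.7e-06). Hspa5 (BiP) had 3418, 3140.0 and 3429 CPM in footprints and 1066, 905 and 1035 CPM in RNA (1.73), next to 1.83 in control cells. Xbp1, a transcription factor of this stress response, was called lower at -0.56, and the call was lost in 3 other settings.

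Genes of the extracellular matrix, which halofuginone is known to restrain in fibroblasts, were mixed. Of 14 tested collagen chains 3 were called higher and 1 lower (median 0.10, against 0.16 in control cells). Col1a1 had 1552, 1674 and 1661 CPM in footprints and 1031, 972 and 1044 CPM in RNA (0.68, SE 0.09, edgeR adjusted p = 3.1e-09). Col1a2, the other chain of type I collagen, had 1031, 987 and 1064 CPM in footprints and 981, 953 and 1000.5 CPM in RNA (0.07, edgeR adjusted p = 0.52). The 2 chains moved apart between the states. The ratio of Col1a1 was 0.35 higher than in control cells (edgeR adjusted p = 0.0085, lost at 0.26 and adjusted p = 0.065 when scaled to all counts), and that of Col1a2 was -0.54 (edgeR adjusted p = 0.00024). The chains of type V collagen showed the same split, with Col5a2 at 0.88 against 0.19 in control cells (edgeR adjusted p of the difference 0.0014) and Col5a1 at -0.75 against -0.21 (adjusted p = 0.038, a call lost in 9 of 21 other settings).

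Fn1, fibronectin, had 3605, 3938 and 3975 CPM in footprints and 6129, 6239.7 and 5912 CPM in RNA of treated cells (-0.67, SE 0.07, edgeR adjusted p = 4.1e-12). In control cells the order was the reverse, at 2292, 2453 and 2229 CPM in footprints and 2024, 1991 and 1978 CPM in RNA (0.22), and the difference was -0.87 (edgeR adjusted p = 5.6e-11). Hspg2, the proteoglycan perlecan, likewise had a lower ratio under halofuginone (-0.85 against -0.10, a difference of -0.73, edgeR adjusted p = 9.6e-06). The metalloproteinase inhibitor Timp1 stood at 1.47 and its relative Timp2 at -0.81, the latter up from -1.75 in control cells (edgeR adjusted p = 9.1e-07). Over the 18 tested non-collagen matrix genes 9 were higher and 6 lower, beside 26.9% and 32.2% of all genes. Their median was 0.23, against 0.51 in control cells. Of 12 genes of collagen processing 5 were higher and 2 lower, with Pcolce, an enhancer of procollagen cleavage, at 1.64, and the cross-linking enzymes Lox at -0.57 and Loxl1 at -0.69, whose calls were lost when scaled to all counts. The call of Loxl1 was lost in 5 of 14 other settings and that of Lox in 1 of 15. For Loxl1 the footprint values (49.7, 38.6 and 25.7 CPM) overlapped those of RNA (46.3, 90.1 and 60.5 CPM).

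The cytoskeleton lay mostly above 0. Of 24 actin and contractile genes 14 were higher and 4 lower, and of 8 tubulins 6 were higher, beside 26.9% higher and 32.2% lower of all genes. The medians of these lists were 0.46 and 0.79, against 0.53 and 0.61 in control cells. Actb had 8351, 9132 and 8972 CPM in footprints and 4749, 4175 and 4469 CPM in RNA (0.98). Myl12a, a regulatory light chain of non-muscle myosin, was a marked exception with 63.6, 40.2 and 68 CPM in footprints and 367, 329 and 338 CPM in RNA (-2.56), and Tpm3, a tropomyosin, stood at -1.60 against -0.15 in control cells (difference -1.43, edgeR adjusted p = 4.5e-05). Rock2, a kinase that acts on myosin, had 48.6, 38.6 and 27.6 CPM in footprints and 88.3, 107 and 127 CPM in RNA (-1.41). In control cells Rock2 had 169, 152 and 162 CPM in footprints and 55.5, 51.4 and 58.1 CPM in RNA (1.54), and its difference of -2.93 (SE 0.30, edgeR adjusted p = 3.1e-10) was among the 5 lowest.

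Ferritin and the transferrin receptor, which iron regulatory proteins control through hairpins in their mRNAs, changed in opposite directions against control cells. Fth1, the ferritin heavy chain, had 495, 528 and 515 CPM in footprints and 871, 911 and 848 CPM in RNA of treated cells (-0.78, edgeR adjusted p = 4.9e-09). In control cells it had 191, 220.2 and 171 CPM in footprints and 1800.2, 1548 and 1705 CPM in RNA (-3.10), so the ratio rose by 2.34 (SE 0.13, edgeR adjusted p = 2e-19). All treated footprint values were above, and all treated RNA values below, those of control cells. Ftl1, the light chain, went from -3.78 to -1.14 (difference 2.65, edgeR adjusted p = 2.2e-06), with near-identical copies in the genome that leave both ferritins uncertain.

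Tfrc, the transferrin receptor, had 489, 505 and 493 CPM in footprints and 222, 296 and 203 CPM in RNA (1.06) against 1.88 in control cells, a difference of -0.80 (edgeR adjusted p = 0.00023). Ireb2, one of the iron regulatory proteins, also had a lower ratio than in control cells (-0.68 against 0.56, edgeR adjusted p = 0.0054). Of 7 tested genes of iron handling 2 were higher and 4 lower than the average mRNA in treated cells.

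Odc1, ornithine decarboxylase, the rate-limiting enzyme of polyamine synthesis, had one of the lowest ratios measured. It had 29.4, 27.4 and 34.9 CPM in footprints for 271, 308 and 285 CPM in RNA, 9.52-fold fewer (log2 ratio -3.25, SE 0.20, edgeR adjusted p = 5.8e-19). In control cells the values were 42.7, 30.1 and 61.7 and 157, 121 and 165 CPM (-1.81), and the ratio fell further by 1.42 under halofuginone (edgeR adjusted p = 0.00055). Footprints overlapped between the states while RNA was higher in every treated library. Azin1, the antizyme inhibitor, was lower too (-0.95), while Sat1, the enzyme of polyamine breakdown, was higher (0.93). Oaz1, the antizyme that is made through a frameshift, had too few footprints for the test in treated cells (23.5, 22.5 and 12.9 CPM for 53.9, 43.3 and 61.2 CPM in RNA). Over the 12 libraries its ratio was higher than in control cells by 1.84 (edgeR adjusted p = 0.0035). Control footprints of Oaz1 were near the detection limit, at 8.29, 10.7 and 10.0 CPM. It passed the footprint filter only with the treated libraries, where footprints were higher, so the size of its difference is uncertain.

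Selenoproteins, whose mRNAs recode a stop codon, were called lower in 5 of 12 cases, and the other 7 were not called. Of all genes 32.2% were called lower and 26.9% higher. Selenof stood at -1.33 and Selenow at -1.11, and the median of the 12 was -0.29 against -0.83 in control cells. Selenow had 90.3, 46.7 and 57 CPM in footprints and 121, 174 and 154 CPM in RNA, and its ratio rose from -2.77 by 1.67 (edgeR adjusted p = 0.00032). Gpx4, the lipid peroxide reductase, was not called (-0.21).

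Short-lived regulators, known for unstable mRNAs that growth signals induce, spread to both sides of 0. Of 28 tested 5 were called higher and 10 lower, beside 26.9% higher and 32.2% lower of all genes, and the median was -0.19 against -0.56 in control cells; scaled to all counts it was 0.07. The difference test called 6 of the 28 higher under halofuginone, beside 6.17% of all genes in that test. Egr1, a zinc finger transcription factor, had 1952, 1926 and 2510.4 CPM in footprints and 2582, 2389 and 2568 CPM in RNA (-0.24, edgeR adjusted p = 0.011), a call lost in 7 of 15 other settings and a sign that turned when scaled to all counts. Gadd45a, a growth arrest gene, was highest (0.83), and Mdm2, the ligase of p53 (-1.59), and Dusp5, a phosphatase of ERK (-1.29), were lowest. Jund had a ratio of -1.24 against -2.49 in control cells (difference 1.27, edgeR adjusted p = 4.1e-05), and Myc one of 0.49 against 0.41.

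Replication-dependent histones, whose mRNAs end in a stem-loop and not in a poly(A) tail, were called higher in 45 of 58 cases and lower in 2. The shares of all genes were 26.9% higher and 32.2% lower. The median of the 58 was 0.82, against 0.86 in control cells. Medians ran from 0.43 for H2A and 0.71 for H2B to 0.74 for H4, 0.96 for H1 and 1.30 for H3. Hist1h3f had 2574, 1915 and 1399 CPM in footprints and 517, 483 and 513 CPM in RNA (1.97). Histone genes of one class are near copies of each other, so single members are uncertain. Of 9 variants with ordinary mRNAs 3 were higher and 2 lower, among them H3f3b, which encodes H3.3, at 1.03 against 0.24 in control cells (edgeR adjusted p = 1.5e-06), and the linker histone H1f0 at -0.34 against -1.81 (difference 1.49, edgeR adjusted p = 7.1e-10).

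Metabolic enzymes differed by pathway. Of 13 glycolytic enzymes 9 were higher, with a median of 0.77 against 0.89 in control cells. Eno1 stood at 1.26, and Pkm, pyruvate kinase, had 1381, 1571 and 1751 CPM in footprints and 678, 625 and 686 CPM in RNA (1.23). Gapdh, which has many copies in the genome, had too few counts for the test in treated cells. Of 22 genes of sterol and fatty acid synthesis 5 were higher and 6 lower (median 0.00), near the 26.9% higher and 32.2% lower of all genes. Srebf2, the transcription factor that controls sterol synthesis, was the lowest, at 75.9, 98.2 and 107 CPM in footprints and 569, 463 and 624 CPM in RNA (-2.63), followed by the desaturase Scd1 (-1.77). Hmgcs1, an early enzyme of the pathway, was called higher at 0.73, with 110.1, 105 and 40.4 CPM in footprints, and the call was lost without RPF HF replicate 1 (0.46, adjusted p = 0.21).

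Zinc finger genes named Zfp, a large family of transcription factors, were called lower in 23 and higher in 15 of 69 tested (of 364 listed), near the 32.2% lower and 26.9% higher of all genes, with a median of -0.28 that was -0.03 when scaled to all counts. Zfp740 (-2.51) and Zfp91 (-2.16) were lowest and Zfp445 highest (1.96). Zfp91 had 78.5, 75.6 and 110.3 CPM in footprints and 367, 391 and 389.7 CPM in RNA. Most members of the family fell short of the count filter.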

How the data were processed

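Per the labels' protocols, total RNA was extracted with Trizol and fragmented by alkaline hydrolysis, and footprints came from the monosome fraction of RNase I digests, with ribosomal RNA depletion described for footprints. The labels call the molecule of the footprint libraries polyA RNA, while the protocol describes size-selected footprints. The authors deposited whole-number counts per gene, unnormalized, and Bowtie, HISAT2, HTSeq and GRCm38 are named in the submitters' processing notes. Which feature was counted, whether strand was used and how reads with several matches were handled is not given in the sources used here. Ratios may depend on the feature counted, and those of any gene with near-identical copies in the genome are uncertain. Low counts were mostly even (odd values made up 17.7 to 30.4% of counts from 1 to 10 in the treated libraries), for reasons not given there, so a count may not stand for 1 fragment, and depth could be overstated and p-values too small if fragments were counted more than once.

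Footprints and RNA were compared with edgeR 4.0.16 (quasi-likelihood, R 4.3.3). Library size was the nuclear protein-coding count times TMM factors from each assay, 0.988 to 1.01. Genes passed filterByExpr (minimum count 10) in each assay on its own. Symbols were found for 55450 of 55536 IDs. Replicates are not said to be separate cultures, so the spread behind each p-value may be technical only. CPM values are not corrected for length and are not compared between genes. Named genes were, by rule, the 10 highest and lowest called genes (average log2 CPM of at least 5, assays not overlapping), 28 fixed genes, up to 2 called members at each end of a list, 3 non-coding RNAs and 5 at each end of the difference test; others are marked as named after their values were seen, and some genes the rule names are not reported here. The rule, the 34 lists and the comparison were chosen with earlier results of these data known. Lists are described by counts and medians, without a test. On counts simulated for 5866 genes, the comparison recovered 90 of 100 genes changed 2-fold and 100 of 100 changed 4-fold, and for the difference (7930 genes) 49 and 93 of 100. Alternatives were other scalings, filters and tools (DESeq2 1.42.0, limma-voom 3.58.1), a replicate block and leaving out each library. Protein features were not analysed here.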

Additional observations from a re-analysis of the deposited data

Results flagged for a closer look

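The results singled out here are the named genes whose footprint to RNA ratio differed between halofuginone and control cells in the edgeR interaction test over 12 libraries (Benjamini-Hochberg adjusted p under 0.05). Each value is the log2 ratio in halofuginone cells minus that in control cells, and the values below run from the 5 highest to the 5 lowest differences and through the groups described above.

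The 5 highest differences among genes with an average log2 CPM of at least 5 were 2.75 for Ldlrad3, 2.65 for Ftl1, 2.53 for Taf1d, 2.45 for Rplp1 and 2.40 for Dusp2. Ldlrad3 had 26.7, 43.5 and 38.6 CPM in footprints and 42, 39.7 and 50.4 CPM in RNA of treated cells, against 8.29, 6.27 and 2.87 and 56.6, 47.8 and 64.8 CPM in control cells. For Dusp2, a nuclear phosphatase of ERK, the values were 115, 130.4 and 149 and 81.9, 56.5 and 71.3 CPM against 4.56, 4.39 and 5.74 and 12.6, 14.7 and 13.5 CPM. Footprints of these genes and of Ftl1 (12, 4.39 and 4.31 CPM) were near the detection limit in control cells. Ldlrad3, Dusp2 and Ftl1 passed the footprint filter only through the treated libraries, where they were higher, so the sizes fitted for them are uncertain. Without RPF control replicate 1 the difference of Ftl1 was 3.5.

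The 5 lowest differences were -2.57 for Atad2b, -2.76 for Adgra3, -2.93 for Rock2, -3.11 for Sbf1 and -3.13 for Mfhas1. Adgra3, Sbf1 and Mfhas1 had too few footprints to be tested within treated cells: Sbf1 had 9.62, 12.9 and 14.7 CPM in footprints and 325, 317 and 297 CPM in RNA, against 104, 105 and 102 and 336, 353 and 289 CPM in control cells. Adgra3 had 2, 0 and 2 footprint counts in treated cells and Mfhas1 2, 6 and 0, so both passed the footprint filter only through the control libraries, where they were higher, and the sizes fitted for them are uncertain. Mfhas1 had 1.07, 9.66 and 0.00 CPM in footprints, and its difference was -4.77 without RPF HF replicate 2.

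Genes of the amino acid response differed by 2.26 for Atf4, 1.53 for Ddit3, 1.27 for Ppp1r15a, 0.75 for Cebpb, -0.59 for Eprs and -0.88 for Ppp1r15b. In the short-lived regulators the differences were 1.27 for Jund and 0.92 for Egr1. In iron and polyamine genes they were 2.34 for Fth1, 1.84 for Oaz1, -0.80 for Tfrc, -1.21 for Ireb2 and -1.42 for Odc1. Selenow differed by 1.67.

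In the translation machinery the differences were 1.38 for Mrpl21, 0.72 for Eif4ebp1, 0.31 for Eef1a1, -1.56 for Eif1 and -1.83 for Eif3j1. In mitochondrial genes they were 1.71 for Ndufb2, 0.85 for Cox6b1, 0.75 for mt-Co1, 0.68 for mt-Nd1, 0.66 for mt-Cytb and -0.42 for Atp5g3. In chaperones and histone variants they were 1.49 for H1f0, 0.80 for H3f3b, -0.55 for Cct8 and -0.85 for Hsp90b1.

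In matrix, cytoskeletal and marker genes the differences were 0.96 for Timp2, 0.70 for Col5a2, 0.35 for Col1a1, 0.32 for Tubb5, -0.48 for Vim, -0.53 for Col5a1, -0.54 for Col1a2, -0.66 for Lox, -0.73 for Hspg2, -0.87 for Fn1, -0.90 for Myl12a, -1.0 for Krt19 and -1.43 for Tpm3. Of the genes with the lowest ratios they were 1.74 for Lsm12, -1.05 for Med13l, -1.55 for Arhgap35, -1.59 for Ptprs, -1.75 for Piezo1 and -1.88 for Plxna1. Srebf2 differed by -0.77.

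The calls of mt-Nd1, Atp5g3, Ddit3 and Cebpb were lost in most other settings, and those of Col5a1, Lox, Eif4ebp1, Egr1, Eef1a1, Tubb5, Ppp1r15a, Col1a1, Eprs and Myl12a in at least 1. Oaz1 and Lsm12 passed the footprint filter, and Eif3j1 the RNA filter, only with the treated libraries, where those levels were higher. The sizes fitted for these genes are uncertain.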

How the results depend on the processing

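Of 144 named genes, 117 kept their direction and their side of the threshold in treated cells under every other setting that could test them, and 45 of 59 did so for the difference from control. The 3466 called genes kept their direction in all settings in which they were called, and 2976 to 3466 of them remained called except with 30 counts in every library, where 2042 were tested and all were called. Scaled to library totals over all genes, 1009 genes were at least 2-fold higher, and the share of higher genes among the calls went from 45.6 to 60.4%. With at least 1 count in every library 2875 genes were lower, 1987 of them at least 2-fold. With at least 30 counts 869 were lower, 375 were at least 2-fold higher and 311 at least 2-fold lower, and 371 had a lower ratio than in control cells, with fewer genes tested. Leaving out one library at a time gave 1381 to 1531 higher, 1698 to 2448 lower, 586 to 637 at least 2-fold higher and 985 to 1549 at least 2-fold lower genes, with 1486 of the last without RPF HF replicate 2 and 1549 without RPF HF replicate 3, when more genes passed the filter. For the difference the ranges were 369 to 468 higher and 515 to 641 lower.

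Ratios near 0 changed sign. With one TMM scaling over all libraries Atf5 was at 0.0026 and Rplp1 at 0.0306. With library totals Atf5 was at 0.189, Slc35a4 at 0.0515, Egr1 at 0.00806, Rplp1 at 0.219 and Gpx4 at 0.0385, and with limma-voom Ppp1r15a was at -0.067. Leaving out one library at a time gave -0.181 to 0.140 for Ppp1r15a, -0.158 to 0.0442 for Atf5, -0.314 to 0.152 for Rplp1, -0.372 to 0.0124 for Gpx4, -0.126 to 0.435 for Taf1d and -0.0374 to 0.168 for Cebpb. List medians changed sign for fibroblast markers (-0.11, 0.14 with library totals and 0.07 with 30 counts), early-response genes (0.07 with library totals), iron (0.27) and polyamine genes (0.31) with 30 counts, upstream reading frame mRNAs (-0.02 with limma-voom) and sterol genes, whose median was near 0.

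With a replicate block 1577 genes were higher and 1883 lower, 594 and 1006 of them at least 2-fold, and 442 and 607 differed from control upward and downward. Whether same-numbered footprint and RNA libraries came from one culture is not given. Their deviations correlated at -0.0048, -0.012 and 0.019 in treated cells, values that cannot decide it where counting noise is large. Among the named genes, the ratio of Krt19 in treated cells and the differences of Atp5g3 and Col5a1 lost their calls under the block. Depth limits genes with few footprints: the 2 shallower treated libraries hold 562794 and 641328 counts. Protein length and proline content were planned and not run.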

Other observations

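Ratios followed the base composition of the promoter, in both states. The 4755 tested genes with a RefSeq promoter (300 bases, GRCm38.p6) were split into 5 groups of like size by the share of G and C, with limits at 54.7, 59.7, 64.0 and 68.7%, a split chosen after the values were seen. From the group poorest to that richest in G and C the median log2 ratio in halofuginone cells was 0.26, 0.14, -0.01, -0.23 and -0.53. In control cells it was 0.22, 0.05, -0.07, -0.25 and -0.43. The share of genes called lower went from 19.6% in the poorest group to 50.4% in the richest. Across genes the ratio correlated with promoter composition at Pearson's r of -0.27 with halofuginone and -0.21 without, as a description over genes that share libraries and assay chemistry. Both assays use short fragments selected on a gel, and the base composition of the transcripts themselves was not analysed here.

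Small RNAs left traces in the footprint libraries. Small nuclear RNAs took 1.76 to 2.00% of the counts in the treated RNA libraries, and 0.182%, 0.506% and 0.719% in footprint replicates 1, 2 and 3. Ribosomal RNA took 0.106 to 0.109% of counts in RNA, and 0.00342%, 0.0381% and 0.0602% in the same footprint libraries. Footprint replicate 1, the deepest library, was the lowest in both. A single locus, Gm42418, held 7.35 to 9.48% of counts in the treated RNA libraries and 0.0634 to 0.100% in the footprint libraries, and it entered the library size only where ratios were scaled to all counts.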
